A study of Mus musculus with 35 samples.

Results

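Expression of 36 genes of glycolysis and the hypoxia response was examined in mouse skin wounds, gene by gene and wound by wound. The members were taken by symbol from a fixed list and all 36 were found in both count tables of the study, each of which was read at the 22830 gene symbols they have in common. RNA was measured in 35 wounds. The day 14 wounds comprised 7 WT, 7 Col5a1CKO and 3 Col5a1CKO with injected WT fibroblasts. The authors describe groups of 7 WT and 7 Col5a1CKO mice as vehicle controls, and give PBS as the control for fibroblasts. The sample labels do not say which of these wounds received it, so untreated below means without fibroblasts. The day 19 wounds comprised 3 of each genotype. A separate cilengitide experiment at day 14 held 4 WT wounds with vehicle, 4 Col5a1CKO wounds with vehicle and 4 Col5a1CKO wounds with cilengitide, an inhibitor of the alpha v beta 3 integrin. Col5a1CKO mice carried floxed Col5a1 alleles and a tamoxifen-inducible Cre driven by Col1a2 regulatory sequence, which acts in fibroblasts, so that other cells kept the gene. WT mice were littermates with the same floxed alleles but no Cre, and tamoxifen was given around wounding to all. Mice were young adults of either sex on a C57BL/6 background, and the labels do not tie libraries to animals, so p-values measure the spread between these wounds. The titles place the fibroblast injection at day 14, whereas another label field gives it for the 3 Col5a1CKO wounds at day 19. The titles were followed.

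Glycolysis converts glucose to pyruvate in the cytosol. Several of its steps are served by isozymes that differ between cell types: Hk1 is widespread, Hk2 is the inducible hexokinase of muscle and tumours, and Hk3 is the hexokinase of myeloid cells. When oxygen is low, prolyl hydroxylases of the Egln family stop marking the alpha subunits HIF-1alpha (Hif1a) and HIF-2alpha (Epas1) for destruction, and the stabilised factors raise transcription of glucose transporters, glycolytic enzymes, Ldha, Pdk1 and Vegfa. Since HIF-1alpha is controlled mainly as a protein, the Hif1a transcript is not a measure of its activity. Neutrophils and activated macrophages rely on glycolysis and are abundant in wounds, as are proliferating keratinocytes and fibroblasts.

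Each library of the fibroblast and time-course table held 20130530 to 49085163 counts over all rows. Those of the cilengitide table held 51211643 to 68266808. The first table fell into an upper and a lower library set by the counts of GC-rich against GC-poor genes. The 4 WT wounds a to d and 5 Col5a1CKO wounds a to e of day 14 formed the lower set, and all other libraries the upper set. Col5a1, the targeted gene, had a log2 fold change of -1.43 ± 0.49 (SE) in Col5a1CKO against WT wounds at day 14 (adjusted p = 0.0756, from the edgeR quasi-likelihood fit over all genes that gives every adjusted p here), and the groups overlapped. RNA of other cell types was also present in unequal amounts. At day 14 the summed level of 10 keratinocyte markers had a median of 41621 CPM (counts scaled to a common library total) in WT and 990 CPM in Col5a1CKO wounds, and that of 12 myeloid markers 4707 and 12195 CPM. The summed level of 12 skeletal muscle markers ranged from 14.0 to 19573 CPM between the WT and Col5a1CKO wounds of day 14. In whole wounds, fewer or more cells of a type and less or more RNA per cell cannot be told apart.

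Much of the transcript sequence of 11 members has near copies elsewhere in the genome, where a short read may not have a single placement. The authors kept reads that aligned once with at most 2 mismatches. Of the 50-base windows along the Gapdh transcript (6:125111871-125116485 in NCBI37, minus strand), 93.9% had a match with at most 2 mismatches at another place in the genome, and every such window had an exact match. The share was 94.6% for Pgam1, 92.8% for Pgk1, 89.98% for Bnip3, 82.3% for Gpi1, 82.2% for Ldhb, 79.6% for Pkm2, 72.1% for Eno1, 71.8% for Ldha, 68.1% for Aldoa and 65.5% for Tpi1. It was 14.6% for Egln1 and at most 4.44% for the other 24 members. Exact copies, between which a read cannot be placed, covered less of several of the 11. Their share was 14.7% for Aldoa, 23.7% for Tpi1, 29.1% for Ldha, 31.4% for Gpi1, 33.6% for Ldhb and 41.4% for Pkm2. It was 58.1% for Eno1, 61.7% for Bnip3, 91.9% for Pgam1 and 92.8% for Pgk1. The levels of those 11 genes are uncertain, in RPKM as in CPM, and their differences are read only between wounds of the same table.

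**Figure D1:**
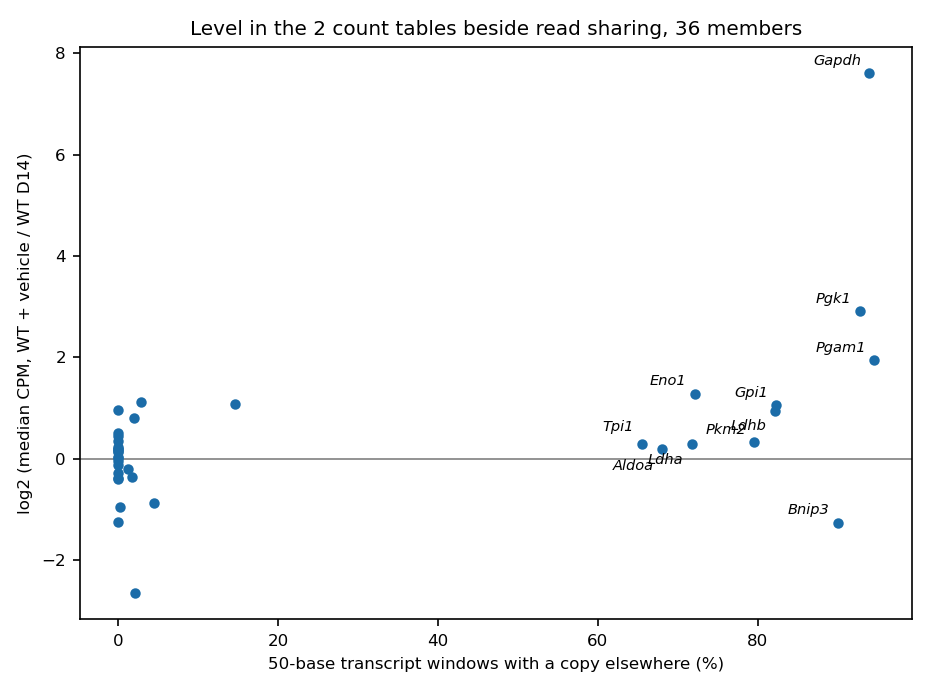
Share of 50-base transcript windows with a copy elsewhere in the genome (x axis, percent) against the log2 ratio of the median CPM in WT + vehicle wounds to that in WT D14 wounds (y axis), 1 point for each of 36 members, with the 11 members over 50% named. Of these 11, Gapdh lies at 7.61, Pgk1 at 2.91 and Bnip3 at -1.27, with a median of 0.94. The 25 members with few copies lie between -2.66 and 1.12.

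Gapdh, the dehydrogenase of the middle of the pathway, differed most between the tables. Its median was 0.824 CPM in WT wounds at day 14 but 161 CPM in WT wounds with vehicle, a log2 ratio of 7.61. Pgk1, the first ATP-forming step, had medians of 31.0 and 232 CPM, and Pgam1, the next mutase, 21.0 and 80.5 CPM. The 25 members with few copies had a median log2 ratio of 0.03 between the same groups (-2.66 to 1.12). Over the 11 with many copies the median was 0.94, and the values were not alike. Bnip3 had a ratio of -1.27, the opposite direction to Gapdh, and Aldoa (0.19), Tpi1 (0.29), Ldha (0.30) and Pkm2 (0.32) lay within the range of the 25. The tables come from separate experiments, so the differences between their levels are descriptive, and the part of read placement in them was not tested.

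Promoter sequences are shown for members that carry the main results, together with Ldha, a well-known hypoxia target that was not called in any comparison. RefSeq promoters (GRCm38.p6) matched 32 of 36 members, with 46 start sites in all. Slc2a3, Epas1, Ndrg1 and Hmox1 had no entry. The core of the hypoxia response element, ACGTG, was searched on either strand in the 250 bases before each start, where overlapping matches of a palindrome count separately. It was found for 19 of the 32 members (59.4%), against 18.5% of all 27025 genes in the table, and in 22 of 46 member promoters (47.8%), against 16.6% of all 32851 promoters. Such a match is a description of letters and not a bound site. Capitals mark each match.
Hk3, chr13:55021386-55021635, minus strand: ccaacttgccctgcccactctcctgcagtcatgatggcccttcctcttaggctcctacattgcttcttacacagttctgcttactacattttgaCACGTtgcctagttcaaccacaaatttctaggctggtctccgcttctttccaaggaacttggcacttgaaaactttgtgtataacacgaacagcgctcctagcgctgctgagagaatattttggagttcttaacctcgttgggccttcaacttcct
Pfkfb3, chr2:11502091-11502340, minus strand: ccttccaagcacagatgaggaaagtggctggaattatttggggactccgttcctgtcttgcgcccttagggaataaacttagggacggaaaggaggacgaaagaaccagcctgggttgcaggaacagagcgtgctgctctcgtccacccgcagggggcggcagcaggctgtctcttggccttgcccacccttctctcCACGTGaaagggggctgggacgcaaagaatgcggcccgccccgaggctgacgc
Slc16a3, chr11:120948817-120949066, plus strand: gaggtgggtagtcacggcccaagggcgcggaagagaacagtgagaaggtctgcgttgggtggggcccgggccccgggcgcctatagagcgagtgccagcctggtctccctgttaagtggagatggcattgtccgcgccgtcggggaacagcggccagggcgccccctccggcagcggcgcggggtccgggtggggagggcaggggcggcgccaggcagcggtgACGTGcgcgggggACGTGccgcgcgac
Adm, chr7:110627407-110627656, plus strand: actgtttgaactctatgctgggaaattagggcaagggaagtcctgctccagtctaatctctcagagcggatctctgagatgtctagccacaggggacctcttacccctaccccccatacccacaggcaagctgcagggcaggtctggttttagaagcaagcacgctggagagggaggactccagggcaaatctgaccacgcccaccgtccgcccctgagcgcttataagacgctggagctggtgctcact
Ldha, chr7:46845554-46845803, plus strand: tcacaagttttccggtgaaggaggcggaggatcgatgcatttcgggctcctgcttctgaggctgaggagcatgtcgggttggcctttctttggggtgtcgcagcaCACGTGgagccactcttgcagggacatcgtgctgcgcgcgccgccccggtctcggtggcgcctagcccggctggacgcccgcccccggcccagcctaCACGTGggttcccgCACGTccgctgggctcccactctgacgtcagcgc

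The 5 windows differed in how many matches they held. Ldha had 5 matches between 145 and 34 bases before the start shown, the most of any member promoter. Its other start, at chr7:46846832-46847081, had none, and Adm had none in its window. Slc16a3 had 2 matches, 27 and 14 bases before the start. The Pfkfb3 start shown had 2 overlapping matches 53 and 52 bases upstream, and its other start, at chr2:11553930-11554179, had 1. Hk3 had 1 match, 156 bases upstream. Of the 12 members that were higher in Col5a1CKO + vehicle wounds (below), 9 had a promoter entry and 6 of those held the motif.

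Levels were compared between genes per transcript length (RPKM, counts scaled by exon length and library total), at day 14. As counted, Aldoa, the main aldolase, had the highest median of the 36 members in WT wounds, at 438 RPKM. It was followed by Ldha at 229, Pkm2, the pyruvate kinase, at 203, Tpi1, the triose phosphate isomerase, at 159, and Hif1a at 119 RPKM. The ranges of these neighbours overlapped. Aldoa, Ldha, Pkm2 and Tpi1 are among the members with many near copies, and so is Gapdh, at 0.421 RPKM. The order of the members is therefore uncertain, with the place of Hif1a in it. Among the isozymes, Hk2 (14.4 RPKM) and Hk1 (12.0) stood above Hk3 (1.0), the glucose transporter Slc2a1 (31.8) above Slc2a3 (0.817), and the lactate transporter Slc16a1 (16.1) above Slc16a3 (9.5).

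**Figure D2:**
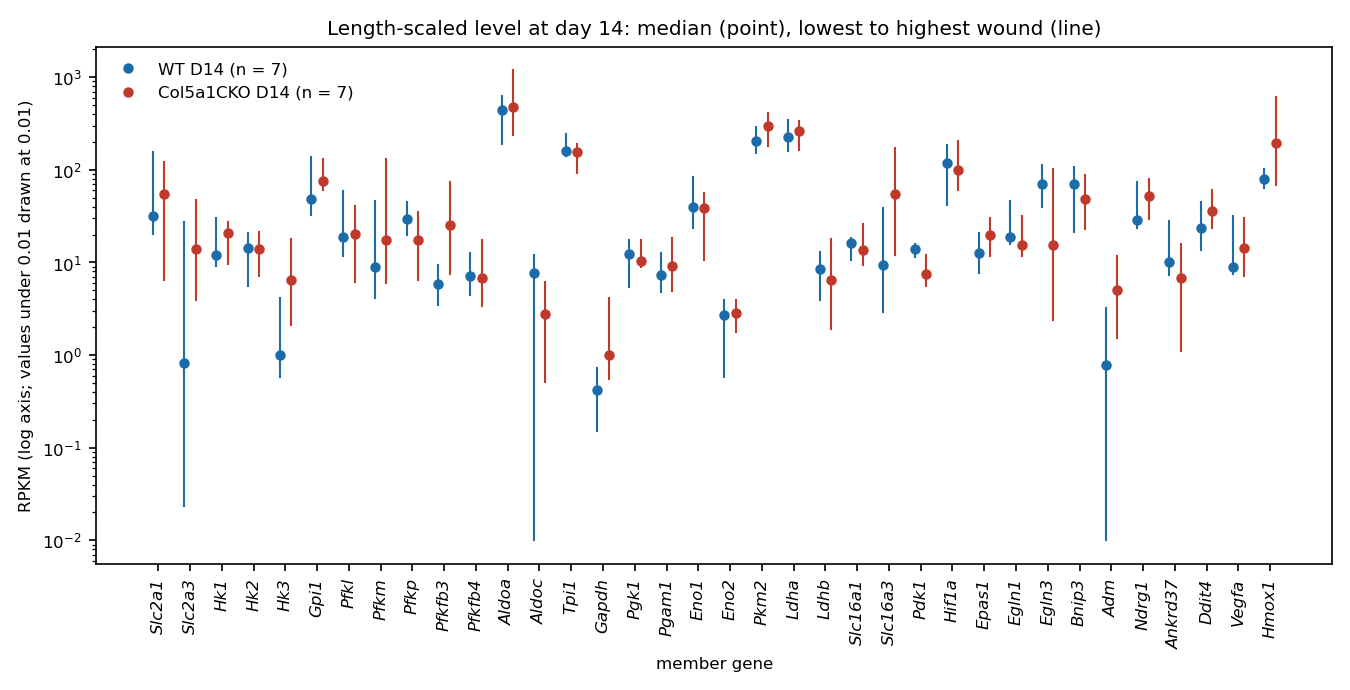
RPKM of the 36 members at day 14 (log y axis) in 7 WT and 7 Col5a1CKO wounds, with a point for the median and a line from the lowest to the highest wound. Ranges overlap between the groups for the core enzymes Aldoa, Tpi1, Pkm2 and Ldha, and also for Slc2a3, Hk3, Pfkfb3 and Slc16a3. The medians of Slc2a3, Hk3, Pfkfb3, Slc16a3, Adm and Hmox1 are higher in Col5a1CKO wounds, and so are those of Aldoa, Pkm2 and Ldha.

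At day 14 the median shares of Hk3, Slc2a3, Slc16a3, Pfkfb3 and Pfkm in their families were higher in Col5a1CKO than in WT wounds. Aldoc and Ldhb, the lesser isozymes beside Aldoa and Ldha, had lower median RPKM in Col5a1CKO wounds (2.75 against 7.65, and 6.45 against 8.54). Hk3 supplied 2.6% of summed hexokinase RPKM at the median of WT wounds (range 1.91 to 11.8) and 22.1% in Col5a1CKO wounds (9.28 to 31.7). The share of Slc2a3 in the summed RPKM of Slc2a1 and Slc2a3 had medians of 1.65% (0.114 to 47.1) for WT and 38.0% (3.48 to 47.8) for Col5a1CKO wounds. For Slc16a3 beside Slc16a1 the medians were 39.3% and 73.5%, and for Pfkfb3 beside Pfkfb4 they were 46.9% and 82.9%. Pfkm beside Pfkl and Pfkp had medians of 10.4% (7.19 to 57.0) and 39.1% (9.13 to 91.2), while those of Pfkl and Pfkp were lower in Col5a1CKO wounds. The ranges of all these shares overlapped between the groups. At day 19 the median share of Hk3 was higher in WT (29.6%) than in Col5a1CKO wounds (16.9%), and the medians lay close together for Slc2a3 (5.80 and 7.53%), Slc16a3 (69.4 and 71.5%) and Pfkfb3 (60.2 and 64.5%). For Pfkm the day 19 medians were 20.2% in WT and 45.5% in Col5a1CKO wounds, with overlapping ranges. These shares were chosen after the values were seen and were not tested.

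Comparing Col5a1CKO with WT wounds at day 14 asked how loss of type V collagen alters the wound transcriptome. Of the 36 members, all of which passed the filter on low counts, 5 were called higher in Col5a1CKO wounds and none lower, where a call needs both an adjusted p under 0.05 and a change of 2-fold or more. Over all 14367 genes tested, 5.57% were higher and 2.71% lower. The 5 were Hk3, Pfkfb3, Slc16a3, Hmox1 and Gapdh. The median log2 fold change was 0.07 over the members and -0.03 over all genes tested, and 20 members had a positive and 16 a negative value. The remaining 31 members, among them Hif1a, Vegfa, Slc2a1, Hk2, Pkm2 and Ldha, did not pass.

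Hk3, the myeloid hexokinase, ranged from 2.64 to 19.8 CPM with a median of 5.13 in the 7 WT wounds. The 7 Col5a1CKO wounds spanned 9.74 to 78.1 CPM around a median of 27.6, so that wounds WT c and WT d lay above the lowest Col5a1CKO wound, e. Its log2 fold change was 2.50 ± 0.56 (SE, adjusted p = 0.0139). Pfkfb3 makes fructose 2,6-bisphosphate, the strongest activator of phosphofructokinase. WT wounds spanned 25.03 to 71.4 CPM (median 42.0), and Col5a1CKO wounds 56.2 to 521 CPM (median 169), of which wound e alone fell within the WT range. Its log2 fold change was 2.22 ± 0.43 (adjusted p = 0.00759), the smallest adjusted p among the members.

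Slc16a3 encodes MCT4, the transporter through which glycolytic cells export lactate. Its lowest, median and highest values were 10.1, 35.4 and 147 CPM in WT and 42.5, 189 and 545 CPM in Col5a1CKO wounds. The highest WT wound, g, lay above the lowest 3 Col5a1CKO wounds, and the log2 fold change was 2.14 ± 0.65 (adjusted p = 0.0465). Hmox1, a haem-degrading enzyme that responds to oxidative stress as well as to hypoxia, ranged from 141 to 238 CPM (median 196) in WT wounds and from 157 to 1313 CPM (median 430) in Col5a1CKO wounds. Apart from wound e, each Col5a1CKO wound was above all WT wounds, and the log2 fold change was 1.41 ± 0.36 (adjusted p = 0.0225). Gapdh was called with a log2 fold change of 2.11 ± 0.65 (adjusted p = 0.0488) on very few reads, with WT wounds at 0.257 to 1.36 CPM and Col5a1CKO wounds at 0.870 to 7.46 CPM.

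The direction of these 5 differences was the same within each library set, but not every call held there. Within the upper set (3 WT, 2 Col5a1CKO wounds) 2 members were called, namely Hk3 at 3.07 ± 0.50 (adjusted p = 0.0415) and Hmox1 at 1.07 ± 0.19 (adjusted p = 0.0421). Within the lower set (4 WT, 5 Col5a1CKO wounds) 2 members were called as well, namely Pfkfb3 at 2.35 ± 0.62 (adjusted p = 0.0459) and Adm at 4.55 ± 1.27 (adjusted p = 0.0466). The shares of all genes called within each set are not reported here. Gapdh had a log2 fold change of 0.44 ± 0.50 in the upper and 2.89 ± 1.01 in the lower set and was called in neither. With the library set as a covariate Gapdh missed the threshold (adjusted p = 0.0597) and Adm passed it (3.47 ± 1.07, adjusted p = 0.0306), while the other 4 calls held. Within the lower set the GC measure, a log2 difference between GC-rich and GC-poor genes, also differed between the genotypes, at -2.34 to -1.72 in WT and -1.50 to -1.20 in Col5a1CKO libraries. Its part in the differences was not tested.

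Myeloid transcripts rose in the same wounds. Of 12 myeloid markers 7 were higher and none lower in Col5a1CKO wounds at day 14, and Ptprc, the pan-leukocyte gene CD45, lay at 29.2 to 125 CPM in the WT wounds and at 141 to 768 CPM in the Col5a1CKO wounds, without overlap. Divided by Ptprc of the same wound, Hk3 had a median of 0.104 (0.0258 to 0.165) for WT wounds and 0.122 (0.0614 to 0.184) for Col5a1CKO wounds. The ratio for Pfkfb3 was 0.572 and 0.582, that for Slc16a3 0.389 and 0.334, and that for Hmox1 1.91 and 1.38, with overlapping ranges in each case. Ratios of members that were not called differed more. That of Hif1a was 7.86 (6.46 to 16.2) for WT and 2.54 (1.09 to 4.67) for Col5a1CKO wounds, without overlap. Medians were 0.576 and 0.190 for Vegfa, 0.0596 and 0.252 for Slc2a3, and 0.0135 and 0.0300 for Adm, with overlapping ranges. Of 5 red cell markers all 5 were higher too, although Hba-a1 and Hba-a2 had identical values, as had Hbb-b1 and Hbb-b2, so that these are 3 separate measurements. The part of these cells in the differences was not tested.

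None of the 4 oxygen-sensing members was called, and of the 7 other hypoxia response genes only Hmox1 was. Hif1a had a median of 788 CPM (317 to 1232) in WT and 673 CPM (363 to 1328) in Col5a1CKO wounds, with a log2 fold change of 0.11 ± 0.38 (adjusted p = 0.887). In both genotypes the wounds of the lower library set held the higher Hif1a values. Vegfa, the main angiogenic factor under HIF, had a median of 48.0 CPM (36.9 to 169) in WT and 67.4 CPM (35.4 to 147) in Col5a1CKO wounds (0.36 ± 0.38, adjusted p = 0.566). Adm, the vasodilator peptide adrenomedullin, was at 0 in 2 WT wounds, had a median of 1.62 CPM there and reached 6.71 CPM. In Col5a1CKO wounds Adm ranged from 3.05 to 22.9 CPM with a median of 10.7, but its log2 fold change of 2.67 ± 0.92 missed the threshold (adjusted p = 0.0761).

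Other glycolytic members, apart from the 4 called ones, did not pass. Slc2a1, the basal glucose transporter, had medians of 123 CPM (72.9 to 603) in WT and 181 CPM (23.8 to 427) in Col5a1CKO wounds. Its log2 fold change was -0.21 ± 0.58. Hk2 had medians of 125 and 116 CPM (-0.12 ± 0.31), Pkm2 of 762 and 958 CPM (0.37 ± 0.23) and Ldha of 598 and 630 CPM (0.00 ± 0.21). Pdk1, named after its values were seen, blocks pyruvate entry into the citric acid cycle. WT wounds lay at 93.4 to 118 CPM and Col5a1CKO wounds at 37.8 to 82.0 CPM, without overlap, with a log2 fold change of -0.90 ± 0.18 (adjusted p = 0.00932) that was under the 2-fold limit.

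Pfkm, the muscle phosphofructokinase, varied widely within groups. At day 14 its lowest and highest values were 16.4 and 183 CPM in WT wounds and 22.6 and 527 CPM in Col5a1CKO wounds (1.55 ± 0.72, adjusted p = 0.181), and in Col5a1CKO wounds of day 19 they were 42.3 and 747 CPM. The wound with 747 CPM, c, also held 6639 CPM of the muscle myosin Myh4, against 82.3 and 317 CPM in the other two.

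**Figure D3:**
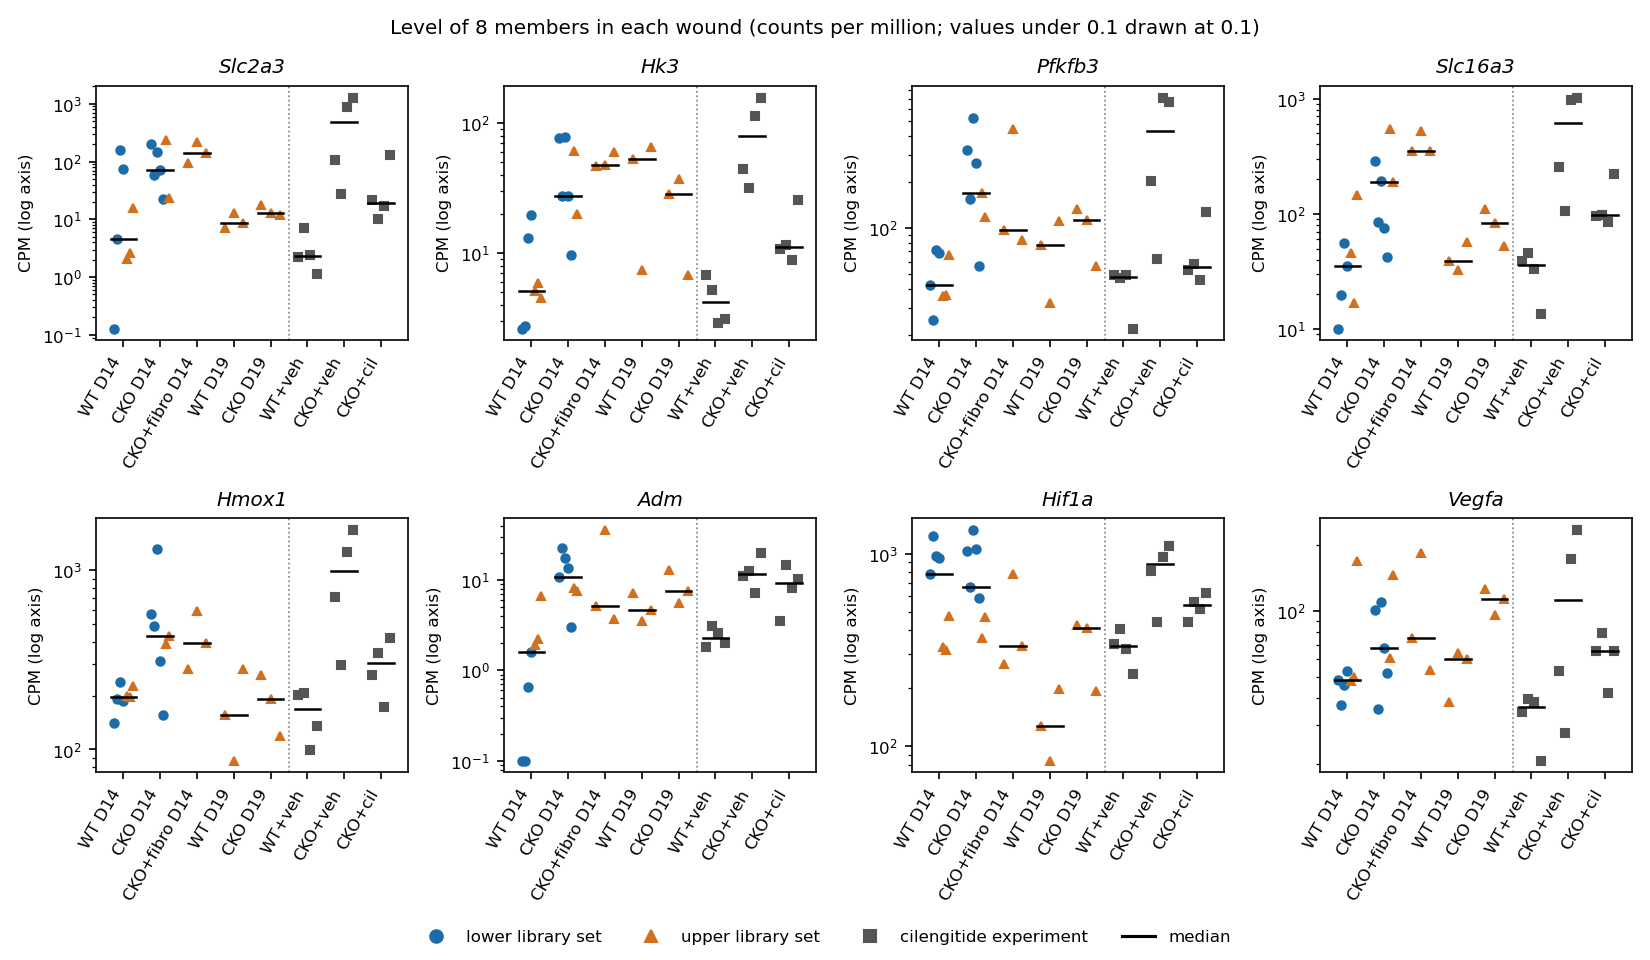
CPM of Slc2a3, Hk3, Pfkfb3, Slc16a3, Hmox1, Adm, Hif1a and Vegfa in each of 35 wounds (log y axis), by group, with the median as a line and the library set as symbol and colour; the dotted line separates the 2 count tables. Hk3, Pfkfb3 and Slc16a3 are high in most Col5a1CKO wounds at day 14 and in Col5a1CKO + vehicle wounds, and Hif1a at day 14 is higher in the lower library set of both genotypes.

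Injection of WT fibroblasts into Col5a1CKO wounds was tested as a rescue. Against untreated Col5a1CKO wounds at day 14, none of the 36 members was called, and none of 15659 genes was either (0% higher). By unadjusted p under 0.05 there were 1 member and 2001 genes, and DESeq2 also called no member. Pgk1 had the smallest adjusted p, with 19.1, 23.2 and 14.4 CPM in the treated wounds and 22.6 to 42.9 CPM (median 24.6) in untreated wounds, a log2 fold change of -0.70 ± 0.29 (adjusted p = 0.366). All 3 treated wounds were in the upper library set, whereas 5 of the 7 untreated wounds were in the lower set. With the library set as a covariate, and within the upper set, again no member was called. A difference was not detectable with these wounds.

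Compared with WT wounds, wounds with WT fibroblasts had 4 members higher and none lower, against 3.77% and 2.06% of 15316 genes. These were Hk3, Pfkfb3, Slc16a3 and Hmox1, and for each the treated wounds lay above all 7 WT wounds. Hk3 was 46.9, 47.6 and 59.7 CPM in the treated wounds (2.88 ± 0.57, adjusted p = 0.0124). Slc16a3 was 348, 528 and 351 CPM (3.25 ± 0.64, adjusted p = 0.0128), beyond the median of untreated Col5a1CKO wounds in each wound. Pfkfb3 was 96.8, 440 and 83.6 CPM (2.18 ± 0.49, adjusted p = 0.0225) and Hmox1 was 280, 591 and 395 CPM (1.23 ± 0.26, adjusted p = 0.0161). These WT wounds are the same as in the first comparison, so the results share their controls.

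The call counts of this comparison rested on single wounds. Without treated wound b, 1 member was higher and 1 lower, and Pfkfb3 dropped to 0.99 (adjusted p = 0.258). Without treated wound c, 1 member was higher and none lower. Within the upper library set, which holds all 3 treated and 3 WT wounds, 6 members were higher and 1 lower, with Slc2a3 and Eno2 added to the former at 4.63 ± 0.98 and 1.93 ± 0.44. The shares of all genes called in these refits are not reported here, and those of the full fit are no background for their counts. The keratinocyte sum was 14910 to 34857 CPM in the treated wounds, within the range of untreated Col5a1CKO wounds (69.2 to 68528 CPM). Its medians were 28940 and 990 CPM, and only untreated wounds d and g lay above the lowest treated wound. The myeloid sum was 11124 to 12843 CPM against 3584 to 23740 CPM, with medians of 11548 and 12195 CPM.

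At day 19 no member was called in either direction between 3 Col5a1CKO and 3 WT wounds, and only 3 of 15135 genes were higher (0.0198%). At an unadjusted p under 0.05 there were 7 members among 3652 genes, and 29 of 36 members had a positive log2 fold change, with a median of 0.40 against -0.01 over all genes. Under library size alone in place of TMM scaling, values in this comparison shift by 0.31 on the log2 scale, so that values near 0 can change sign with the scaling. Vegfa had the smallest adjusted p. It was 125, 96.0 and 113 CPM in Col5a1CKO wounds and 38.2, 63.8 and 60.2 CPM in WT wounds, which did not overlap (1.12 ± 0.23, adjusted p = 0.112). Hif1a was 426, 409 and 193 CPM against 128, 84.0 and 198 CPM (1.38 ± 0.48, adjusted p = 0.172). The GC measure also differed between the genotypes at day 19. It was 0.507, 0.453 and 0.823 in Col5a1CKO and 0.987, 1.004 and 0.885 in WT libraries, and its part in the day 19 differences was not tested.

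DESeq2 called 3 members higher and 1 lower at day 19, namely Vegfa (1.11, adjusted p = 0.00279), Epas1 (1.26, adjusted p = 0.00103) and Hif1a (1.37, adjusted p = 0.0454) as higher and Aldoc (-1.15, adjusted p = 0.0016) as lower. The share of all genes called by DESeq2 is not reported here, and the edgeR share above is no background for these calls. With edgeR, Epas1, the alpha subunit of HIF-2, was called only without WT wound c (1.497 ± 0.240, adjusted p = 0.0413). None of Hk3, Pfkfb3, Slc16a3 and Slc2a3 was called at day 19. Hk3 was 28.7, 37.2 and 6.83 CPM in Col5a1CKO and 53.0, 7.45 and 66.0 CPM in WT wounds, and Pfkfb3 was 132, 112 and 55.9 against 77.6, 32.0 and 111 CPM. Slc16a3 was 109.8, 83.8 and 52.1 against 39.1, 32.5 and 57.5 CPM (0.98 ± 0.37, adjusted p = 0.19), and Slc2a3 was 17.4, 13.0 and 12.1 against 7.15, 12.9 and 8.75 CPM (0.64 ± 0.27, adjusted p = 0.214). For none of the 36 members did the genotype difference itself differ between the days at an adjusted p under 0.05 (edgeR test of the interaction, 0 of 15954 genes). At an unadjusted p under 0.05 there were 3 of 36 members and 939 of 15954 genes. Among the members Hk3 had the lowest p in this test, 0.0070 (adjusted p = 0.689).

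In the cilengitide experiment the vehicle-treated wounds repeated the genotype comparison in other wounds. Col5a1 itself was 2658, 2551, 472 and 449 CPM in WT + vehicle and 1319, 571, 604 and 252 CPM in Col5a1CKO + vehicle wounds (-1.17 ± 0.76, adjusted p = 0.232), so that WT wounds 3 and 4 lay below 3 of the 4 Col5a1CKO wounds. Here 12 members were higher and 1 lower in Col5a1CKO + vehicle than in WT + vehicle wounds, and 23 were not called. Over 15434 genes the shares were high as well, 17.5% higher and 13.4% lower. The median log2 fold change was 0.91 over the members and 0.02 over all genes tested. By role, 5 of 7 hypoxia response genes other than the oxygen sensors were higher (Adm, Ndrg1, Ddit4, Vegfa and Hmox1). Among the glycolytic genes the higher members were Slc2a3, Hk3, Pfkfb3, Gapdh, Eno2 and Slc16a3. Of the 4 oxygen-sensing genes Hif1a was higher, and Ldhb was lower.

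Slc2a3 encodes GLUT3, a high-affinity glucose transporter of neurons and leukocytes. It was 2.27, 7.19, 2.40 and 1.14 CPM in WT + vehicle wounds 1 to 4 and 107, 27.4, 882 and 1286 CPM in Col5a1CKO + vehicle wounds 1 to 4. The groups did not overlap, and the log2 fold change of 7.44 ± 1.44 (adjusted p = 0.00482) was the largest among the members in any comparison. Hk3 was 6.76, 5.26, 2.91 and 3.13 CPM against 44.3, 31.6, 114 and 158 CPM (4.25 ± 0.61, adjusted p = 0.00164). Slc16a3 was 39.2, 46.1, 33.0 and 13.5 CPM against 253, 106, 972 and 1022 CPM (4.14 ± 0.81, adjusted p = 0.00509). Wounds 3 and 4 of the Col5a1CKO + vehicle group were highest and wound 2 lowest for each of the 3 genes.

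Pfkfb3 was 48.9, 46.8, 49.1 and 21.9 CPM in WT + vehicle and 203, 62.5, 710 and 662 CPM in Col5a1CKO + vehicle wounds (3.28 ± 0.75, adjusted p = 0.00933). Hmox1 was 202, 208, 98.7 and 136 CPM against 714, 297, 1264 and 1683 CPM (2.596 ± 0.549, adjusted p = 0.00681). In both genes wounds 3 and 4 were again highest and wound 2 lowest, without overlap between the groups. Eno2, the neuron-type enolase, was low throughout, at 3.11, 1.89, 1.51 and 1.05 CPM against 6.997, 7.57, 8.12 and 3.70 CPM (1.79 ± 0.40, adjusted p = 0.00794).

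Among the hypoxia response genes Adm had the smallest adjusted p of all members. It was 1.83, 3.12, 2.57 and 2.00 CPM in WT + vehicle and 11.1, 12.5, 7.19 and 20.1 CPM in Col5a1CKO + vehicle wounds (2.40 ± 0.34, adjusted p = 0.00161). Hif1a was 341, 406, 318 and 236 CPM against 809, 442, 964 and 1095 CPM (1.33 ± 0.32, adjusted p = 0.0112), again without overlap. Vegfa was 34.3, 39.4, 38.2 and 20.6 CPM against 52.9, 27.7, 173 and 235 CPM (1.86 ± 0.64, adjusted p = 0.0434), and Col5a1CKO wound 2 lay within the WT range.

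Ndrg1, a stress-responsive gene, and Ddit4, which restrains mTORC1 signalling, also overlapped between the groups. Ndrg1 was 143, 174, 134 and 109 CPM against 216, 161, 439 and 558 CPM (1.27 ± 0.40, adjusted p = 0.0313). Ddit4 was 44.5, 53.1, 51.4 and 41.8 CPM against 84.5, 40.3, 181 and 185 CPM (1.34 ± 0.45, adjusted p = 0.0384). Gapdh was 170, 152, 170 and 115 CPM against 213, 135, 663 and 854 CPM (1.60 ± 0.57, adjusted p = 0.0477).

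Ldhb, the lactate dehydrogenase subunit of oxidative tissues, went the other way. It was 27.0, 29.5, 49.7 and 32.5 CPM in WT + vehicle and 10.8, 13.1, 7.82 and 6.204 CPM in Col5a1CKO + vehicle wounds (-1.88 ± 0.30, adjusted p = 0.00225), without overlap. Ldha, the subunit of glycolytic tissues, was 791, 678, 864 and 576 CPM against 634, 379, 1835 and 2658 CPM (0.90 ± 0.59, adjusted p = 0.234). Pkm2 was 1033, 920, 980 and 732 CPM against 1257, 732, 3201 and 4093 CPM (1.32 ± 0.54, adjusted p = 0.0755), Slc2a1 was 215, 260, 280 and 147 CPM against 186, 72.9, 649 and 918 CPM (0.99 ± 0.71, adjusted p = 0.271), and Hk2 was 130, 106, 124 and 101 CPM against 79.3, 33.3, 184 and 300 CPM (0.35 ± 0.58, adjusted p = 0.638). In each of these 4 genes wounds 3 and 4 were above all WT wounds, and wound 2 was below them for Ldha, Slc2a1 and Hk2 and beside the lowest of them for Pkm2.

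The calls of Slc2a3, Hk3, Pfkfb3, Slc16a3, Eno2, Hif1a, Adm, Hmox1 and Ldhb held without any single wound. Those of Gapdh, Ddit4 and Vegfa were lost without any 1 of the 4 WT wounds and without Col5a1CKO + vehicle wound 3 or 4. Ndrg1 was lost without WT wound 1, 3 or 4 and without Col5a1CKO + vehicle wound 3 or 4. The adjusted p of these 4 genes then lay between 0.0526 and 0.114. Myeloid markers were higher for 11 of 12 genes and lower for none, with a summed level of 439 to 2988 CPM in WT + vehicle and 5635 to 51387 CPM in Col5a1CKO + vehicle wounds, again highest in wounds 3 and 4 and lowest in wound 2. Keratinocyte markers fell in 4 of 10 genes and summed to 68973 to 107400 CPM against 146 to 16316 CPM. All 5 red cell markers (3 separate measurements), 4 of 8 endothelial and 3 of 9 fibroblast markers were higher as well. The GC measure was lowest in the same wounds, at -0.55 to -0.20 against -0.03 to 0.13 in WT + vehicle libraries. The part of these in the members' differences was not tested.

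**Figure D4:**
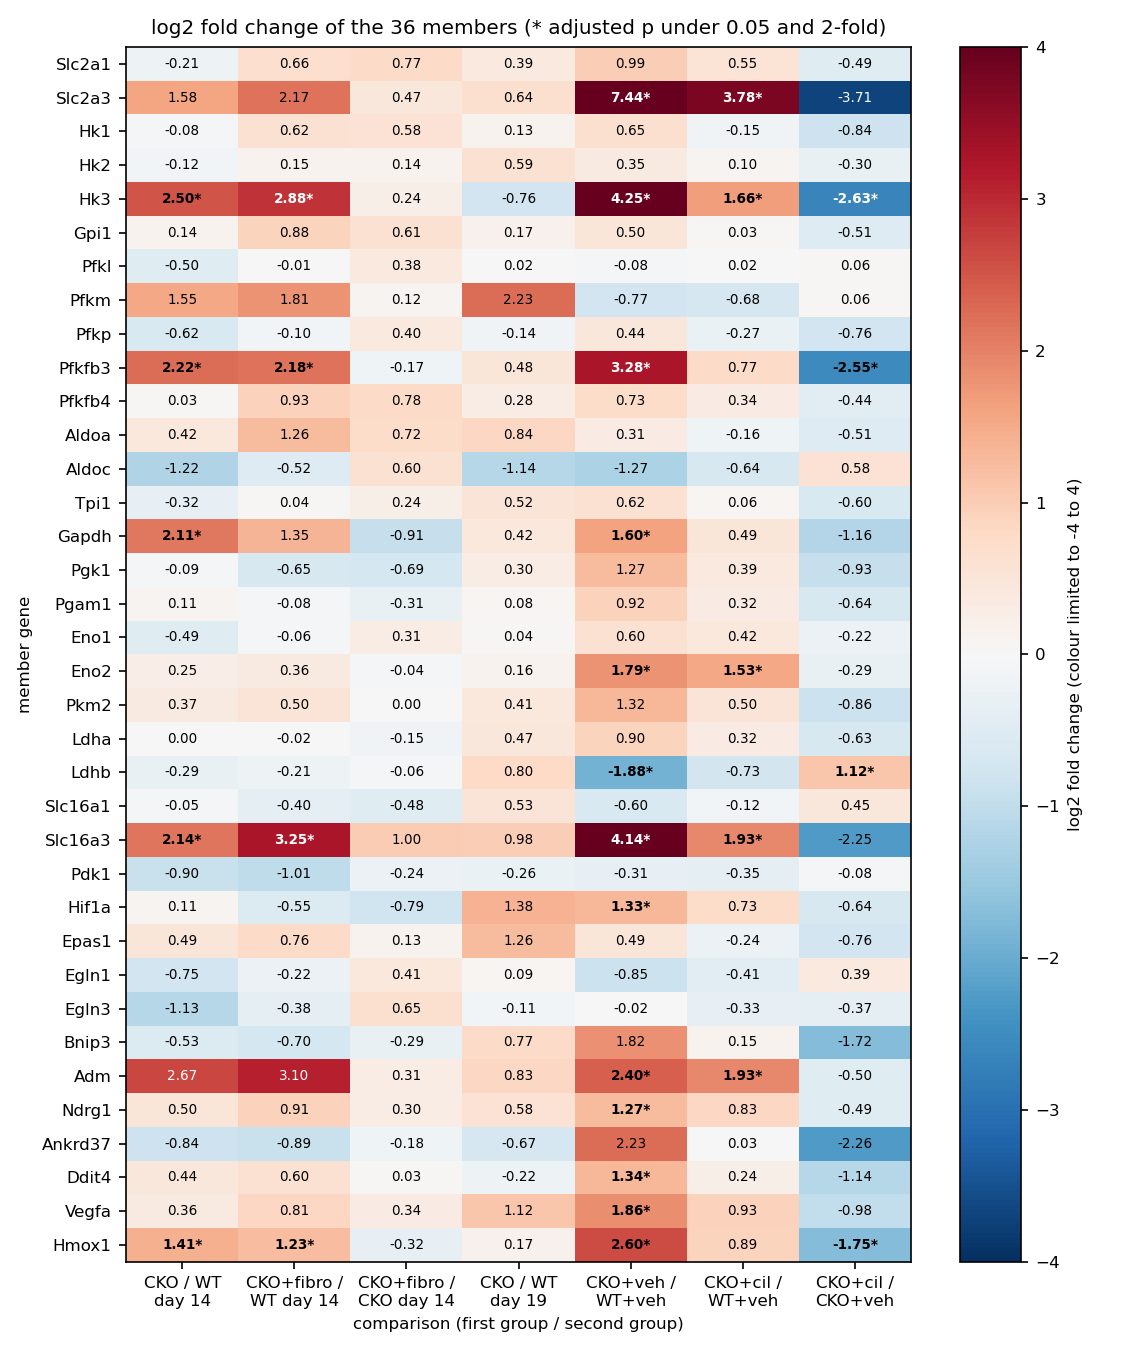
Log2 fold change of the 36 members (rows) in 7 comparisons (columns, first group against second), with an asterisk where the adjusted p was under 0.05 and the change at least 2-fold. Col5a1CKO + vehicle against WT + vehicle has 13 marked members, the comparison with cilengitide 4 and the comparison at day 19 none.

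Cilengitide in Col5a1CKO wounds was compared with vehicle in the same genotype. Of the 36 members, 3 were lower (Hk3, Pfkfb3 and Hmox1) and 1 was higher (Ldhb), against 6.59% of 15563 genes lower and 6.48% higher. All 4 had moved the opposite way between the genotypes under vehicle, but the Col5a1CKO + vehicle wounds are shared by the comparisons. With cilengitide, Hk3 was 10.8, 11.7, 8.83 and 25.5 CPM, below all 4 vehicle wounds (-2.63 ± 0.60, adjusted p = 0.0203). Pfkfb3 was 52.8, 58.2, 45.6 and 127 CPM (-2.55 ± 0.76, adjusted p = 0.0447) and Hmox1 was 260, 344, 173 and 417 CPM (-1.75 ± 0.54, adjusted p = 0.0483), both overlapping vehicle wound 2. Ldhb was 24.5, 13.4, 19.2 and 26.0 CPM, above all 4 vehicle wounds (1.12 ± 0.29, adjusted p = 0.0274).

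Slc2a3 (21.9, 9.96, 16.9 and 130 CPM) and Slc16a3 (96.5, 98.2, 85.4 and 220 CPM) missed the threshold, at -3.71 ± 1.36 (adjusted p = 0.0802) and -2.26 ± 0.74 (adjusted p = 0.0597). In both genes cilengitide wound 4 was the highest of its group and overlapped the vehicle wounds. Adm was 3.55, 14.5, 8.10 and 10.3 CPM and had a log2 fold change of -0.50 ± 0.45 against vehicle (adjusted p = 0.439). Over the members the median was -0.62, and 30 of 36 values were negative, against a median of -0.06 over all genes.

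This comparison depended on single wounds throughout. No member was called without vehicle wound 3, without cilengitide wound 1 or without cilengitide wound 3. Without cilengitide wound 2, 1 member was higher and none lower, and without cilengitide wound 4, 3 were lower and none higher. Without vehicle wound 4, 2 were lower and none higher, and without vehicle wound 1, 2 were lower and 1 higher. Without vehicle wound 2, 8 were lower and 1 higher. How many of all genes were called in each of these refits is not reported here, so their counts have no background. Of 12 myeloid markers 8 were lower with cilengitide, and their sum was 4823 to 9370 CPM. Keratinocyte markers were higher for 3 of 10 genes, with a sum of 39154 to 76690 CPM.

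Set against WT + vehicle wounds, the cilengitide wounds still had 5 members higher and none lower, where 5.15% of 15514 genes were higher and 3.43% lower. These were Slc2a3 (3.78 ± 0.99, adjusted p = 0.0356), Adm (1.93 ± 0.40, adjusted p = 0.022), Slc16a3 (1.93 ± 0.44, adjusted p = 0.0263), Hk3 (1.66 ± 0.41, adjusted p = 0.0308) and Eno2 (1.53 ± 0.35, adjusted p = 0.0267). In each of them all 4 cilengitide wounds were above all 4 WT wounds. Eno2 was 6.13, 4.93, 6.93 and 3.73 CPM with cilengitide, close to the vehicle wounds of the same genotype (-0.29 ± 0.29, adjusted p = 0.482).

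With the adjusted p alone and no limit on size, 11 members were higher, where 9.53% of all genes were, and 1 was lower. The changes that this adds were small, among them Hif1a (444, 560, 518 and 626 CPM, 0.73 ± 0.17, adjusted p = 0.0267), Vegfa (65.3, 78.8, 42.2 and 65.2 CPM, 0.93 ± 0.24, adjusted p = 0.0337), Pkm2 (0.50 ± 0.13, adjusted p = 0.0326) and Gapdh (0.49 ± 0.12, adjusted p = 0.0301). The 2-fold calls were lost together without single wounds. None remained without WT wound 3 or without cilengitide wound 2, 3 or 4, and 1 did without WT wound 4. Without WT wound 1 there were 4, without WT wound 2 there were 6, and without cilengitide wound 1 there were 5. The shares of all genes in these refits are not reported here. Myeloid markers were higher for 7 of 12 genes.

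Ratios to Ptprc in the same wound, chosen after the values were seen, differed between genes. For Hk3 the median ratio was 0.0935 in WT + vehicle (0.0742 to 0.126), 0.117 in Col5a1CKO + vehicle (0.10 to 0.164) and 0.101 in Col5a1CKO + cilengitide wounds (0.0899 to 0.113), while its level varied from 2.91 to 158 CPM. The ratio was not alike in all groups, with medians of 0.408 (0.401 to 0.571) for WT and 0.231 (0.182 to 0.247) for Col5a1CKO wounds of day 19, which did not overlap, and 0.218 (0.137 to 0.224) in wounds with WT fibroblasts. Slc16a3 had medians of 0.786, 0.777 and 0.918. Slc2a3 went further than Ptprc, with medians of 0.0518 (0.0328 to 0.133), 0.566 (0.102 to 1.33) and 0.180 (0.0959 to 0.554). For Hif1a, Vegfa, Hmox1, Adm and Pfkfb3 the median ratio was lower in Col5a1CKO + vehicle than in WT + vehicle wounds. The Hif1a ratio was 7.14 (6.33 to 8.11) in WT + vehicle and 1.40 (0.973 to 1.83) in Col5a1CKO + vehicle wounds, and the Vegfa ratio 0.683 (0.591 to 0.973) and 0.147 (0.104 to 0.244), without overlap in either gene. That of Hmox1 was 3.80 (2.52 to 3.91) and 1.45 (1.11 to 1.75), also without overlap. That of Adm was 0.0575 (0.0341 to 0.0654) and 0.0230 (0.00727 to 0.0467), and that of Pfkfb3 0.887 (0.630 to 1.25) and 0.573 (0.234 to 0.717), both with overlap. A ratio compares the amounts of RNA of a pair of genes and does not say in which cells they were made.

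**Figure D5:**
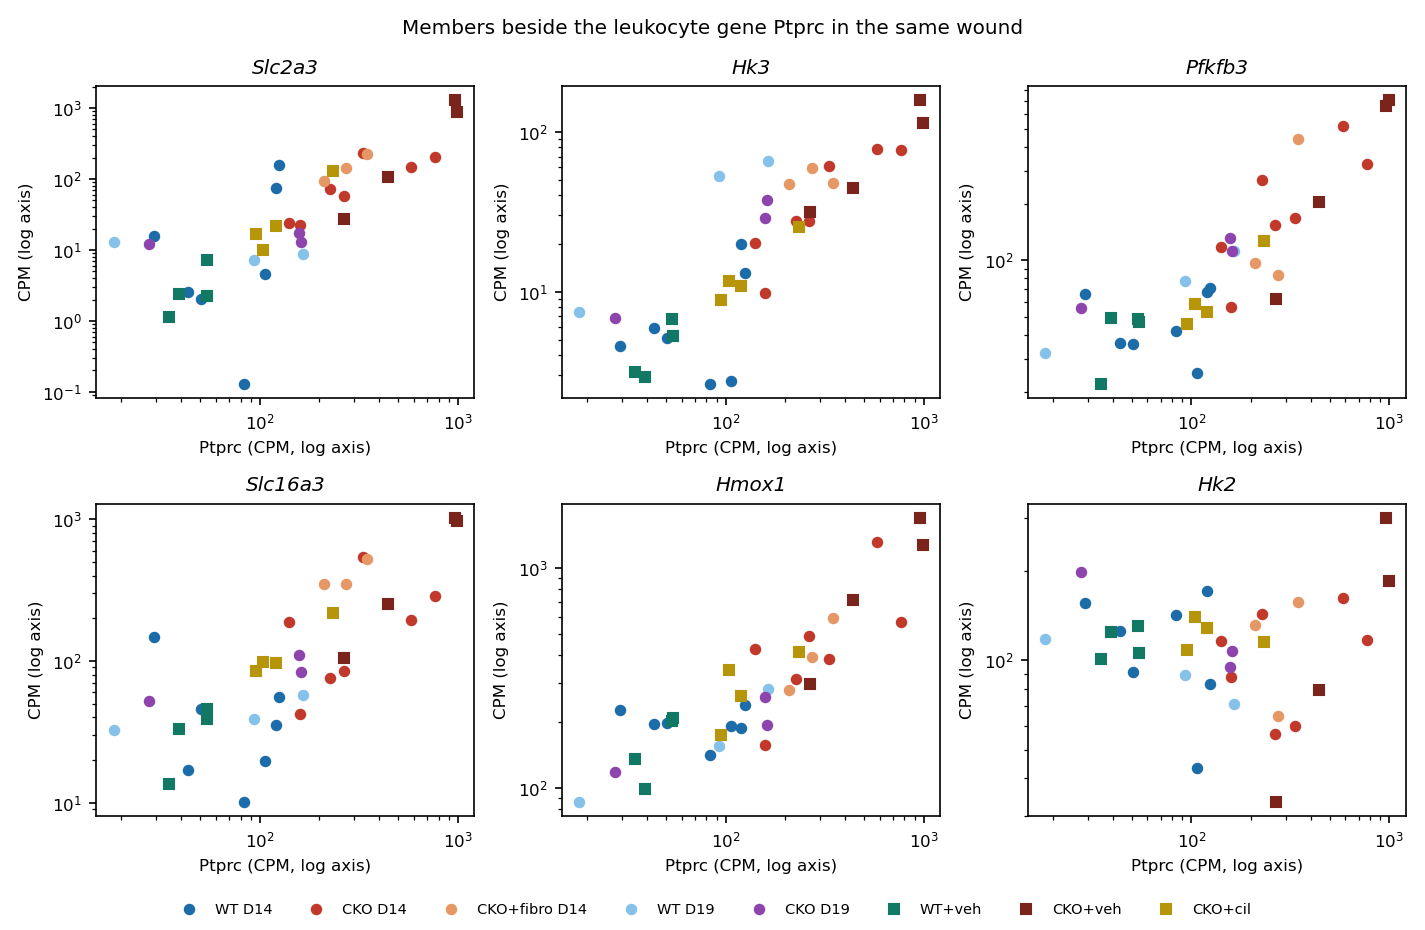
CPM of Slc2a3, Hk3, Pfkfb3, Slc16a3, Hmox1 and Hk2 (log y axes) against CPM of Ptprc in the same wound (log x axes), 1 point for each of 35 wounds, coloured by group, circles for the fibroblast and time-course table and squares for the cilengitide table. The Col5a1CKO + vehicle wounds 3 and 4 lie at the upper right of each panel, and Hk2 spans 33.3 to 300.4 CPM, with 118 CPM in the wound lowest in Ptprc and 184 CPM in the wound highest in it.

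Genes of the same pathways outside the 36 were read from lists of their own. Of the other glycolysis and pyruvate genes, 6 were higher and 3 lower of 30 tested in Col5a1CKO + vehicle against WT + vehicle wounds, shares near those over all genes (17.5% and 13.4%). Among them were Slc2a6 (4.77 ± 0.74), a further leukocyte hexose transporter, Slc2a10 (1.98 ± 0.65) and Slc2a13 (1.92 ± 0.44) upward, and Slc2a12 (-3.42 ± 0.44) and Pfkfb2 (-1.29 ± 0.25) downward. At day 14 in the first experiment 1 of 29 was higher, again Slc2a6 (2.23 ± 0.58, adjusted p = 0.0255), and none lower. Over all genes 5.57% were higher and 2.71% lower there. With cilengitide against vehicle Slc2a12 rose (2.52 ± 0.40), while Slc2a6 (-2.96 ± 0.91) and Pgm1 (-1.13 ± 0.24) fell. Of all genes 6.48% were higher and 6.59% lower with cilengitide.

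Of 18 genes of glycogen, gluconeogenesis and the pentose phosphate pathway tested, 5 were higher and 1 lower between the vehicle groups, which again is to be read against 17.5% and 13.4% of all genes. Pygl, the liver-type glycogen phosphorylase, was higher by 2.86 ± 0.57, H6pd by 2.01 ± 0.37 and Gys1, a glycogen synthase, by 1.70 ± 0.54. Fbp1, a gluconeogenic phosphatase, was lower by -8.79 ± 1.83. Pygl (1.99 ± 0.38) and H6pd (1.47 ± 0.25) were also the 2 genes of 17 that were higher at day 14 in the first experiment, where none was lower. Over all genes 5.57% were higher and 2.71% lower there. With cilengitide against vehicle, Fbp1 rose (4.71 ± 1.26) and Pygl fell (-2.37 ± 0.62), where 6.48% of all genes were higher and 6.59% lower.

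Of 37 other oxygen-sensing and hypoxia response genes tested between the vehicle groups, 15 were higher and 3 lower, against the same 17.5% and 13.4% of all genes. Nos2, the inducible nitric oxide synthase of macrophages, was higher by 7.95 ± 1.45, Cxcr4 by 3.73 ± 0.65 and Ier3 by 3.67 ± 0.78, while Car12 (-3.47 ± 0.59), Rora (-2.90 ± 0.21) and Hif1an, the factor that inhibits HIF (-1.19 ± 0.15), were lower. At day 14 in the first experiment 7 of 37 were higher and 3 lower, against 5.57% and 2.71% of all genes. Nos2 (5.91 ± 0.84) and Flt1 (2.11 ± 0.39) were among those upward, and Rora (-2.05 ± 0.45), Higd1a (-1.86 ± 0.34) and Fam162a (-1.84 ± 0.49) went downward. Cilengitide against vehicle gave 2 higher, Car12 (3.09 ± 0.58) and Rora (1.65 ± 0.16), and 5 lower, against 6.48% and 6.59% of all genes. Against WT + vehicle the cilengitide wounds had 10 higher and 1 lower, where 5.15% and 3.43% of all genes were. None of these 3 lists had a called gene at day 19 or when Col5a1CKO wounds given WT fibroblasts were set against untreated ones.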

How the data were processed

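RNA of 35 mouse skin wounds was sequenced by the authors, who per their methods made stranded libraries, aligned reads to NCBI37/mm9 with HISAT2, kept uniquely aligned reads with at most 2 mismatches and counted them over RefSeq exons. Whether the cilengitide libraries were processed alike is not given separately in the sources used here. The deposited values are raw counts per gene. Where a symbol had several rows, the row with most counts was kept, and 30 rows and 1 row without a symbol were left out of the fibroblast and time-course table and the cilengitide table. Each pair of groups was fitted over all genes with edgeR 4.0.16 (R 4.3.3) after TMM scaling and filterByExpr with a minimum count of 10, by the quasi-likelihood test with robust dispersion and Benjamini-Hochberg adjustment over all genes tested. Genes past an adjusted p of 0.05 with a change of 2-fold or more were called. Errors of log2 fold changes are standard errors. DESeq2 1.42.0, other scalings, filters and call rules, library sets and leaving out wounds were alternatives. The code was tested on simulated data. CPM are TMM-scaled, and RPKM use the deposited lengths and the total of all rows. Levels in CPM are not compared between genes. Read sharing was measured with BLAST+ 2.17.0 on GENCODE transcripts against NCBI37, for windows of 50 bases. GC content came from 11831 genes of at least 5 CPM, by the median difference of the top and bottom 10% of GC. Members with full values are those called in any comparison, the member with the smallest adjusted p in each, and Hif1a, Vegfa, Slc2a1, Hk2, Pkm2, Ldha and Gapdh. Of other pathway lists up to 3 called genes per direction are named, and some are not reported here. The members and lists were chosen with earlier results of these data known. Marker lists cover keratinocyte, myeloid, skeletal muscle, fibroblast, endothelial, adipocyte, red cell and T cell genes, and Trbc2 of the last is in neither table.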

Additional observations from a re-analysis of the deposited data

Results flagged for a closer look

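Among 90 combinations of a named member and a group of 4 to 10 wounds, 4 held a wound that stood apart from its group on the log2 scale, where chance gives about 1 in 20. WT wound g at day 14 stood apart for Ndrg1, at 322 CPM against 98.5 to 138 CPM in the other WT wounds, and for Vegfa, at 169 CPM against 36.9 to 53.1 CPM. Wound 4 of WT + vehicle stood apart for Pfkfb3, at 21.9 CPM against 46.8 to 49.1 CPM. Wound 4 of Col5a1CKO + cilengitide stood apart for Slc16a3, at 220 CPM against 85.4 to 98.2 CPM.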

How the results depend on the processing

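No call of a member turned direction. Of 415 alternatives for called members, 315 kept the call and 100 lost it, and of 94 alternatives for counts of called members 69 stayed within 1.5 times the reported count. For Col5a1CKO against WT at day 14 the count fell from 5 to 3 with all genes of at least 1 count, and to 2 within the upper and 2 within the lower library set. At day 19 it rose from 0 to 4 with DESeq2. For wounds with WT fibroblasts against WT it rose from 4 to 7 within the upper set. For cilengitide against vehicle it went from 4 to 7 with DESeq2 and to 2 with all genes of at least 1 count, and for cilengitide against WT + vehicle from 5 to 12 by the adjusted p alone, as dropping the fold limit allows. When single wounds were left out, the count ranged from 0 to 1 at day 19, was 0 throughout for WT fibroblasts against untreated Col5a1CKO, and ranged from 1 to 4 for WT fibroblasts against WT, from 9 to 18 for vehicle, from 0 to 9 for cilengitide against vehicle and from 0 to 6 for cilengitide against WT + vehicle. Only the 3 treated wounds were left out in the fibroblast comparisons, and none at day 14 between the genotypes. Apart from the size rule, the cause of these changes was not tested. The shares of all genes called under the alternative fits are not reported here, so a changed count is no result about the members alone.

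Replicate letters gave no pairing, since deviations of wounds with the same letter correlated at a mean of 0.139 at day 14 (lowest -0.397), -0.369 at day 19, 0.088 for WT fibroblasts against untreated Col5a1CKO (lowest -0.159) and 0.187 for WT fibroblasts against WT, where all 3 were positive (0.058 to 0.312) but not all above 0.1. With the replicate block the count was 3 at day 14, 1 for WT fibroblasts against untreated Col5a1CKO and 10 for WT fibroblasts against WT. The shares of all genes called with the block are not reported here.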
